A study of Mus musculus with 4 samples.

Results

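The Col4a4 and Itgbl1 fibroblasts were 150 barcodes among 1163 fibroblast barcodes and 3435 kept barcodes from popliteal vessels of the mouse hindlimb. A barcode tags the RNA of one droplet, normally one cell, and each RNA molecule carries a unique molecular identifier (UMI). A fibroblast barcode had UMIs of at least 3 of the 5 genes Pdgfra, Col1a1, Col1a2, Dcn and Serpinf1. A member also had at least 2 of the 4 genes Col4a4, Tspan11, Itgbl1 and Nkain4. It had more of these than of Pi16, Sfrp4, Pcolce2 and Dpp4, and more than of Cxcl14, Scara5, Inmt and Penk. The same rule with the gene sets exchanged gave 296 Pi16-type and 162 Cxcl14-type fibroblasts, and 555 fibroblast barcodes fell in no type. Members were thus chosen by their measured UMIs of these genes, so every level of a member beside another fibroblast is given below as a description, with no test.

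Single-cell RNA was measured in adult mice that carry WT1GFPCre (Wt1tm1(EGFP/cre)Wtp) and the Ai9-tdT reporter (Gt(ROSA)26Sortm9(CAG-tdTomato)Hze), and all groups shared this genotype and a 4% Evans blue injection into the footpad. In this strain the Wt1 locus drives Cre, so tdTomato marks cells in which that locus is or was active. The popliteal lymphatic vessel (PLV) group was 2 libraries, replicates 1 and 2 (PLV 1 and PLV 2), each from a pool of 2 mice, digested for 30 minutes with 1 mg/ml collagenase I, Dispase II, DNAse and Liberase. The mixed library was 1 pool of 2 mice whose lymphatic and blood vessels (labelled PLV and BV) were digested for 60 minutes without DNAse and Liberase, hashed and combined. The hashtag counts were not used here, so the mixed library is 1 sample of both vessels. Between PLV and mixed libraries the vessel, the digestion, the mice and the run all differed, and their parts in any difference cannot be told apart. Where 3 values follow each other they are for PLV 1, PLV 2 and mixed, in that order. Sex-limited RNA differed with them too: Xist was seen in members of both PLV libraries only, and Ddx3y in members of the mixed library only.

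Fibroblasts of vessel walls build the collagen and elastic matrix around muscle and endothelium, and several kinds lie side by side: Pi16 cells are known from the outer adventitia, and Cxcl14 and Scara5 mark another interstitial kind. Type IV collagen is the sheet-forming collagen of basement membranes and is assembled from 3 chains. Col4a3 and Col4a4 encode chains that join with the Col4a5 chain in a network known best from the kidney, while Col4a1 and Col4a2 encode the common network of blood vessels. Itgbl1 is a secreted protein related to integrin beta chains, Tspan11 is a membrane protein of the tetraspanin family, and Nkain4 is a membrane protein that interacts with the sodium pump. Smoc2, a calcium-binding matrix protein, and Dpep1, a membrane dipeptidase, are further markers given for these cells that the rule did not use. The perineurium is the cell sheath around nerve bundles, whose cells carry tight junctions and hemidesmosome proteins.

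Members were a small share of the fibroblasts in the PLV libraries and a large one in the mixed library. PLV 1 held 18 members among 524 fibroblast barcodes (3.44%, 95% exact Clopper-Pearson interval 2.05 to 5.37%). PLV 2 held 5 of 123 (4.07%, 1.33 to 9.23%), and the mixed library held 127 of 516 (24.6%, 21.0 to 28.6%). The interval of the mixed library did not overlap those of the PLV libraries, and the difference was not tested over libraries, since an exact permutation of 2 libraries against 1 cannot pass 0.05. The denominator moved the size of the share: among fibroblast barcodes without at least 2 muscle markers the members were 18 of 396, 5 of 87 and 127 of 285 (4.55%, 5.75% and 44.6%). All intervals here cover counting error only. After every cell was thinned to 1500 UMIs, the rule found 8 of 378, 1 of 71 and 61 of 337 (2.12%, 1.41% and 18.1%), so the mixed library stayed highest. Members had a median of 5080.5, 6579 and 7179 UMIs. Other fibroblasts had 4197, 5535 and 7510. No kept barcode was shared between libraries, and 1 of the 150 members was a predicted doublet.

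The members were not of one kind. A marker list for perineurial cells (Slc2a1, Itgb4, Cldn1, Lypd2, Perp and Casq2) divided them with a gap: 138 members had UMIs of 0 or 1 of the 6 markers, 12 had 4 or more, and none had 2 or 3. The 12 were 9 of the 18 members of PLV 1, 2 of the 5 of PLV 2, and 1 of the 127 of the mixed library. The summed level of the 6 markers in these 12 was 4496, 6364 and 2861 CPM, the UMI counts of a gene or list scaled to a common total. In the other members it was 0, 0 and 5.13 CPM, with 6, 6 and 3 of the markers at 0. The PLV members were therefore in good part a group that the mixed library almost lacked, and the label of one fibroblast type did not hold for these 12. Barcodes with 4 or more of these markers also occurred outside the members, 5 among unassigned fibroblasts and 1 among barcodes that were not fibroblasts, and in none of the Pi16-type and Cxcl14-type barcodes. This division was made after the data were seen, so its genes are described and not tested.

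**Figure D1:**
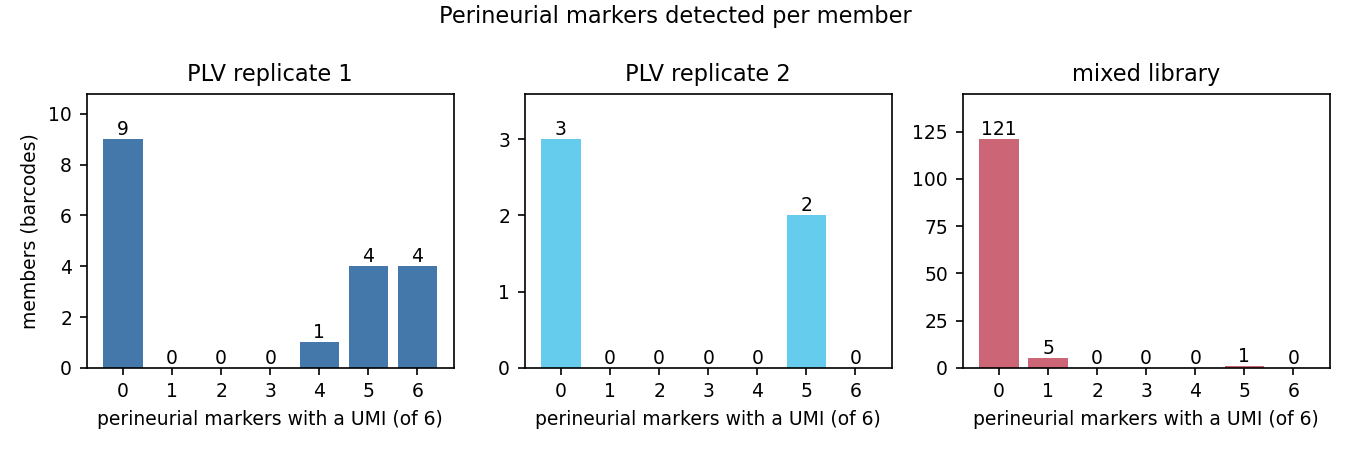
Number of members (vertical axis, barcodes) by how many of 6 perineurial markers had a UMI (horizontal axis), one panel per library with its own vertical scale. Members sit at 0 or 1 or at 4 to 6 markers, with no member at 2 or 3.

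The 12 members with perineurial markers shared genes that the list did not hold. Sfrp5, a secreted Wnt antagonist, stood at 2336, 2917 and 1970 CPM in these members. It had a UMI in all 12, and in none of the 138 other members. Itgb4, the integrin beta chain of hemidesmosomes and one of the list's markers, stood at 2172, 2828 and 1548 CPM in the 12 and at 0 in the others. Thbs4, a thrombospondin of nerve, muscle and tendon matrix, stood at 1191, 972 and 1172 CPM against 0, 0 and 1.03 CPM. Ntng1, a membrane-anchored netrin, stood at 946, 265 and 1407 CPM against 0, 0 and 12.3 CPM. Wnt6, a Wnt ligand, stood at 292, 707 and 469 CPM against 0, 0 and 16.4 CPM. These levels are all from the same few barcodes. Their median depth was above that of the other members in PLV 1 (8763 against 2883 UMIs) and in the mixed library (21323 UMIs in 1 barcode against 7122.5), and below it in PLV 2 (5657 against 6579 UMIs). The part of depth in these levels was not tested.

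Other genes were low or without UMIs in these 12 members. Dpep1 had no UMI in any of them (in PLV 1, 0 of 9, whose exact interval reaches 33.6% of barcodes with a UMI and sets no limit on cells that express it), although Smoc2 had one in 7 of 9, 2 of 2 and 1 of 1. Serpinf1, a secreted factor of most fibroblasts and one of the rule's 5 fibroblast genes, stood at 11.7, 0 and 0 CPM, against 1633, 589 and 2434 CPM in the other members. Lum, a small proteoglycan that binds collagen fibrils, stood at 0, 177 and 0 CPM against 1313, 2028 and 1423 CPM. Tspan11 was found in 1 of 9, 1 of 2 and 1 of 1, while Col4a4 was found in 8 of 9, 2 of 2 and 1 of 1. Against the other members, 185 of 1038 genes (17.8%) were at least 2-fold higher in all 3 libraries and 344 of 5269 (6.53%) at least 2-fold lower. A fold called in this report is a ratio of CPM with 10 CPM added to each side. Genes counted for a higher call had at least 20 UMIs in the class described. Those counted for a lower call had at least 20 UMIs in the class it was compared with. Genes thus entered each count through the side where they could be high, and the higher and lower shares are not to be set against each other. The shares of this contrast rest on 9, 2 and 1 barcodes.

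The 4 genes of the rule had these levels in the 138 members without perineurial markers. Col4a4 (ENSMUSG00000067158) stood at 544, 65.4 and 405 CPM, from 17, 1 and 395 UMIs. Tspan11 (ENSMUSG00000030351) stood at 544, 458 and 420 CPM. Itgbl1 (ENSMUSG00000032925) stood at 384, 262 and 418 CPM. The values of PLV 2 come from 3 barcodes, so a single UMI there is 65.4 CPM. Nkain4 (ENSMUSG00000027574) stood at 64.05, 523 and 207 CPM. In Pi16-type fibroblasts the same genes lay between 19.6 and 131 CPM over the libraries. In Cxcl14-type fibroblasts Tspan11 was highest, at 182, 105 and 109 CPM, while Nkain4 was at 0, 5.52 and 1.91 CPM.

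Smoc2 (ENSMUSG00000023886), outside the rule, had a higher summed level in the members than in both other types in every library. In members without perineurial markers it stood at 1153, 1177 and 726 CPM. The Pi16-type values were 164, 245 and 168 CPM, and the Cxcl14-type values 598, 524 and 334 CPM. The 95% Poisson interval of the members lay above those of both types in each library. Such intervals cover counting error of the summed UMIs only, and not the spread between cells or mice. The PLV sums of the members were 36 and 18 UMIs from 9 and 3 barcodes. Members with perineurial markers had it as well, at 747, 1944 and 938 CPM. Among barcodes with at least 3 of 6 blood endothelial markers, a kind of cell that should lack it, Smoc2 had a UMI in 0 of 400, 0 of 148 and 0 of 193, at median depths of 4325.5, 6740.5 and 8089 UMIs.

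Dpep1 (ENSMUSG00000019278) did not mark the members in the PLV libraries. Members without perineurial markers had 384 and 262 CPM there, Pi16-type fibroblasts 412 and 414 CPM, and Cxcl14-type fibroblasts 524 and 441 CPM. In the mixed library the members stood at 783 CPM (interval 729 to 841), above 254 CPM in Pi16-type and 512 CPM in Cxcl14-type fibroblasts. By cells, Dpep1 had a UMI in 110 of the 126 members (87.3%) and in 54 of the 61 Cxcl14-type cells (88.5%) of the mixed library, and at 1500 UMIs a cell in 63.3% and 50.8%. The gene was thus broad over these fibroblast types. The blood endothelial barcodes had it in 1 of 400, 0 of 148 and 0 of 193.

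**Figure D2:**
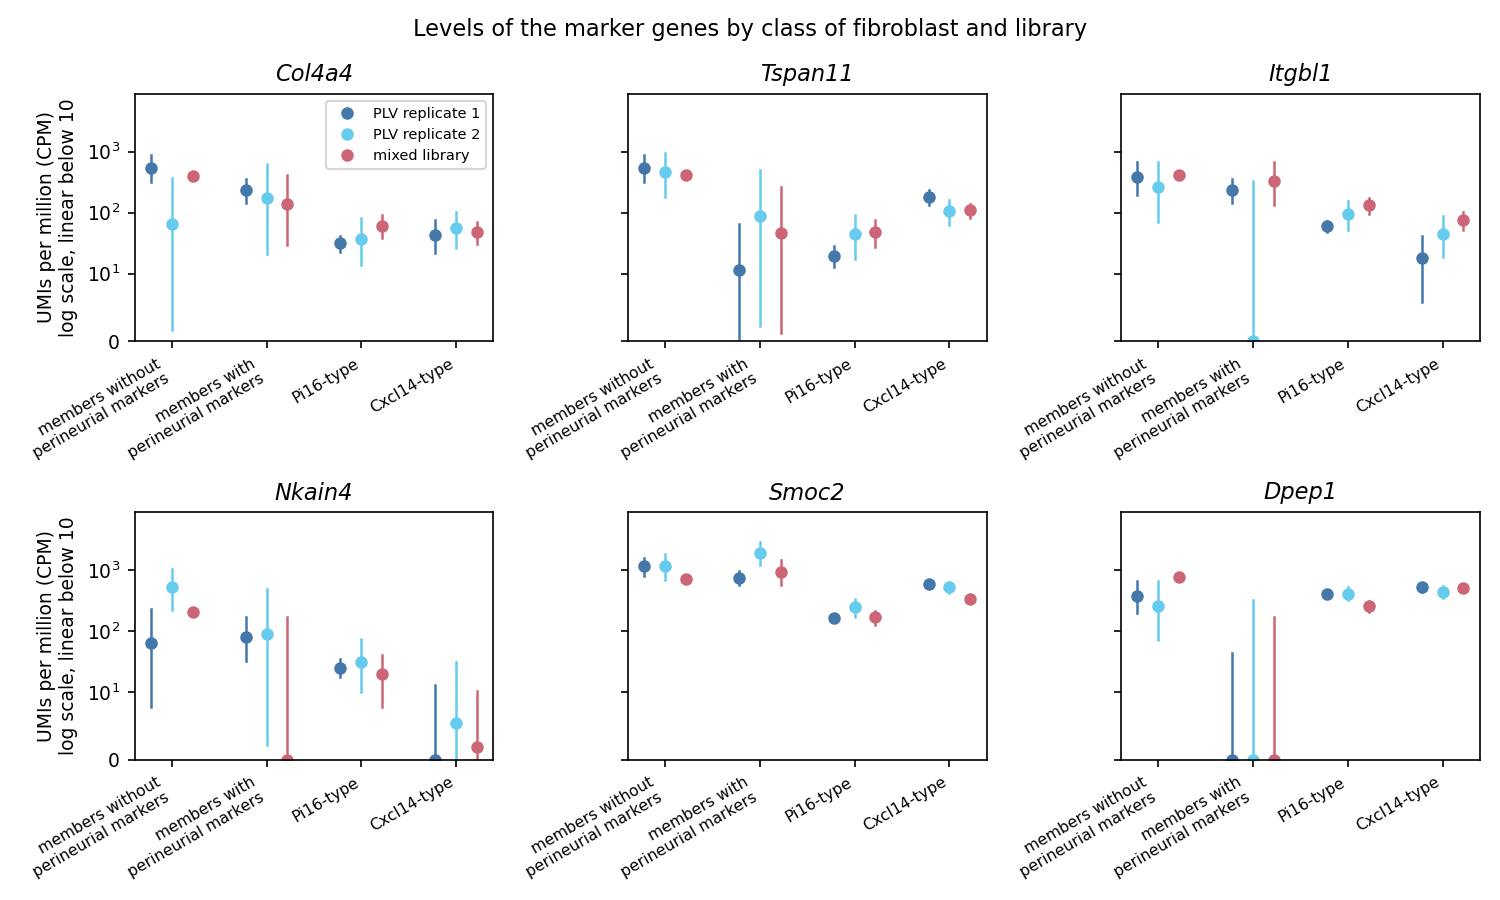
CPM (log scale, linear below 10) of the 4 rule genes and of Smoc2 and Dpep1 in 4 classes of fibroblast, one point per library with its 95% Poisson interval. Smoc2 in the members lies above both other types in each library, and Dpep1 is at 0 in members with perineurial markers.

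Values at the edge of the rule are given within the mixed library, since the PLV libraries held 14 of the 28 members with only 2 of the 4 genes and 2 of the 69 with all 4. Its 14 members with 2 genes had 416 CPM of Smoc2 and 442 CPM of Dpep1, at a median depth of 2383 UMIs. Its 46 with 3 had 778 and 567 CPM at 4634 UMIs, and its 67 with all 4 had 728 and 865 CPM at 10131 UMIs. Just outside, its 54 other fibroblasts with 1 of the genes had 324 CPM of Smoc2 and 406 CPM of Dpep1. A further 68 had at least 2 of the genes and were left out because another set was as high, and they had 348 and 491 CPM. Smoc2 was thus highest in the members with 3 of the genes. Depth moved with the number of rule genes found, and its part in the choice of members was not tested beyond the thinning above.

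Col4a3 (ENSMUSG00000079465), which the rule did not use, accompanied Col4a4. In members without perineurial markers it had 3, 0 and 105 UMIs, or 96.1, 0 and 108 CPM (interval in the mixed library 88.1 to 130 CPM). Pi16-type fibroblasts had 2.10, 6.27 and 14.0 CPM and Cxcl14-type fibroblasts 10.7, 11.0 and 5.73 CPM. In the mixed library 62 of the 126 members (49.2%) had a UMI, against 4 of 43 Pi16-type, 3 of 61 Cxcl14-type and 1 of 193 blood endothelial barcodes. Thinned to 1500 UMIs the shares were 14.2%, 4.88% and 3.39%, with 0 of 171 blood endothelial barcodes. Of the 111 of these members with Col4a4, 58 also had Col4a3 (52.3%, median depth 7811 UMIs), and of the 15 without it, 4 did (26.7%, 3913 UMIs), so depth moves with both genes. Other fibroblasts showed the same order in each library: with Col4a4 8.33%, 17.6% and 22.8% had Col4a3, and without it 1.35%, 1.98% and 2.71%, so finding both genes together was not particular to the members. Of the PLV members without perineurial markers, 1 of 9 and 0 of 3 had Col4a3. In PLV 1 most of it was in the members with perineurial markers, of which 5 of 9 had a UMI (8 of the 11 UMIs, 93.4 CPM), and in the other libraries 0 of 2 and 0 of 1 did.

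The pair is shown by sequence because the genes lie head to head. In the GENCODE annotation of GRCm38, Col4a4 runs leftward from its start at position 82586849 of chromosome 1, and Col4a3 runs rightward from 82586921. Only 71 bases lie between them. The stretch chr1:82586849-82586921 is given on the minus strand, 5′ to 3′, from RefSeq's promoter window of Col4a4 (GRCm38.p6), with the start bases of Col4a3 (first) and Col4a4 (last) in capitals:
Col4a3 start to Col4a4 start: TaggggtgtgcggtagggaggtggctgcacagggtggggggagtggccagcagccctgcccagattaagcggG
Of 32851 promoter windows of 300 bases in that table, 5.71% held a coding gene's start on the opposite strand. The Col4a4 window had 63.3% G and C, against a median of 52.7%. It held neither GGGCGG nor TATAAA on either strand, which 35.7% and 13.6% of all windows did.

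The remaining type IV collagens followed other patterns. Col4a1 stood at 1313, 131 and 865 CPM in members without perineurial markers. Cxcl14-type fibroblasts had 805, 966 and 840 CPM and Pi16-type 184, 264 and 215 CPM, so in the mixed library the members were level with the Cxcl14-type and above the Pi16-type. Col4a2 stood at 692 CPM in the members of the mixed library, 157 CPM in its Pi16-type and 493 CPM in its Cxcl14-type fibroblasts. Col4a5, the partner chain of the Col4a3 and Col4a4 network, had 64.05, 0 and 39.0 CPM in the members, from 2, 0 and 38 UMIs. Pi16-type fibroblasts had 42.0, 50.2 and 103 CPM and Cxcl14-type fibroblasts 24.9, 33.1 and 49.7 CPM, so in the mixed library the members had the lowest value of the 3. Col4a6 had no UMI in any member. Of the 4 listed genes other than Col4a4 with at least 20 UMIs in the members of the mixed library, Col4a3 alone was at least 2-fold above both types.

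**Figure D3:**
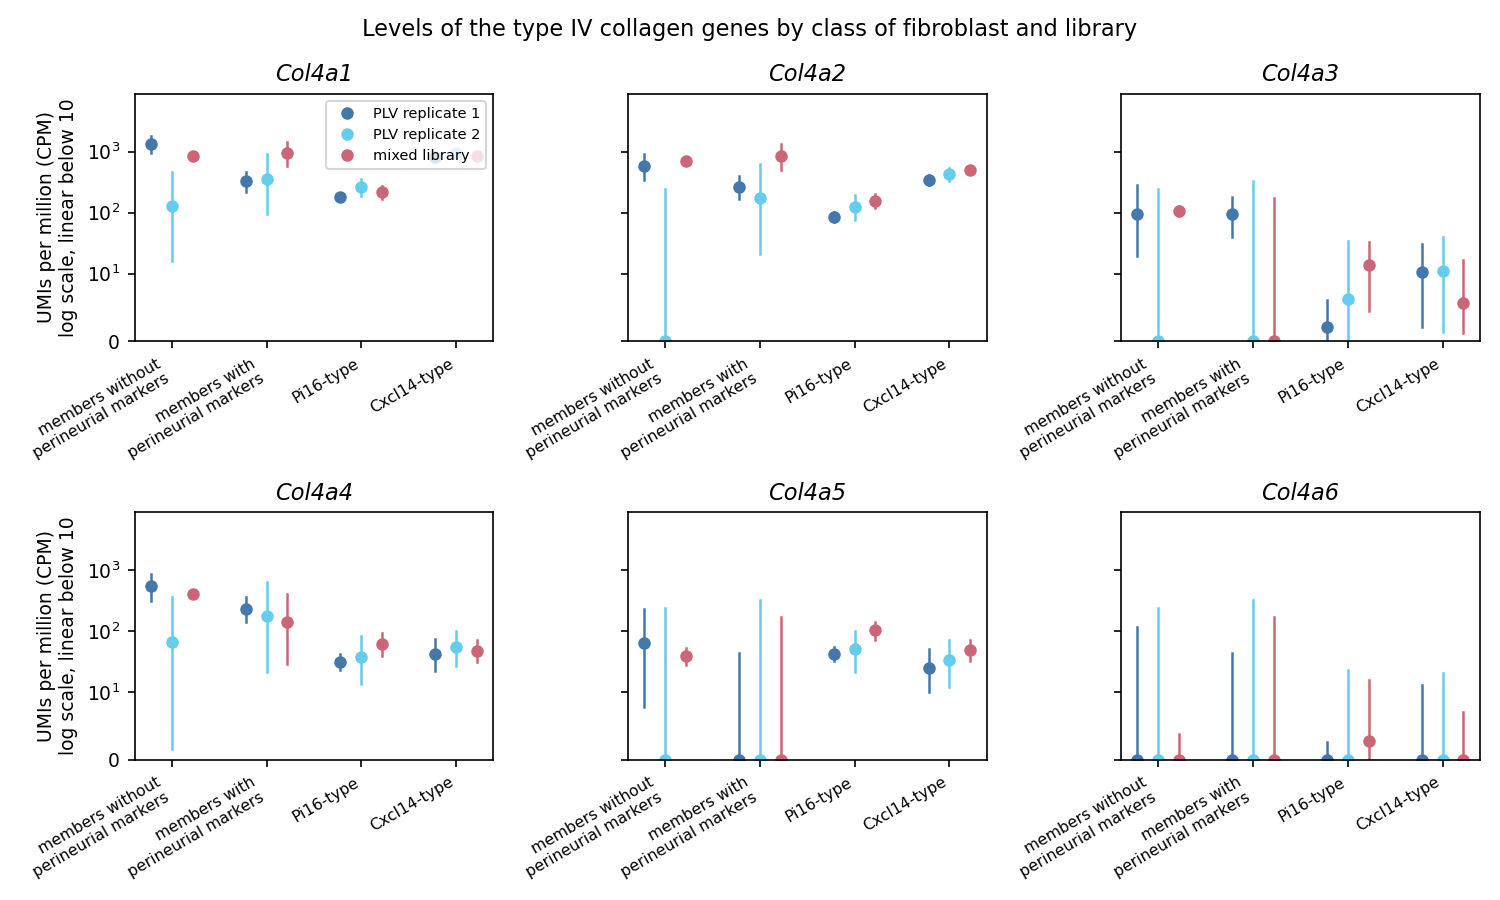
CPM (log scale, linear below 10) of the 6 type IV collagen genes in 4 classes of fibroblast, one point per library with its 95% Poisson interval. Col4a3 and Col4a4 are high in the members of PLV 1 and of the mixed library, while Col4a1 and Col4a2 are high in Cxcl14-type fibroblasts too.

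Over all 150 members, 61 of 5927 genes (1.03%) were at least 2-fold higher than in the other fibroblasts in all 3 libraries, and 306 of 11444 (2.67%) at least 2-fold lower. Against the Pi16-type alone 88 (1.48%) were higher and 183 of 8628 (2.12%) lower, and against the Cxcl14-type 93 (1.57%) and 93 of 5679 (1.64%). Both sides of the first contrast were mixtures. The 6 muscle markers Acta2, Myh11, Tagln, Cnn1, Des and Lmod1 summed to 6851, 9467 and 20388 CPM in the other fibroblasts and to 51.3, 0 and 37.2 CPM in the members, and Acta2, Myh11 and Tagln were among the 10 genes farthest below. Among the 20 highest, Sfrp5 and Itgb4 came wholly from the members with perineurial markers. Ntng1 and Wnt6 came wholly from them in the PLV libraries, while in the mixed library 12 of the 42 UMIs of Ntng1 and 16 of the 26 of Wnt6 were in the other members. Without those members, and without other fibroblasts that had at least 2 muscle markers, 32 of 5269 genes (0.607%) were higher and 75 of 9773 (0.767%) lower. Of these 32 and 75, 10 and 30 were among the 61 and 306. The same members against the Pi16-type gave 59 higher (1.12%) and 223 lower (2.58%), and against the Cxcl14-type 35 (0.664%) and 77 (1.36%).

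Several of the 20 highest genes did not depend on the perineurial group. Mgp, an inhibitor of matrix calcification, stood at 5508, 2551 and 3274 CPM in members without perineurial markers. Cxcl14-type fibroblasts had 1183, 1396 and 1910 CPM and Pi16-type 99.4, 602 and 763 CPM. Olfml3, a secreted olfactomedin-domain protein, stood at 288, 327 and 612 CPM, against 189, 177 and 199 CPM in the Cxcl14-type and 58.8, 62.7 and 215 CPM in the Pi16-type. Both genes were higher in the members of every library, Olfml3 by less in PLV 1. Dkk3, a secreted relative of the Dickkopf Wnt inhibitors, stood at 288, 523 and 147 CPM, against 78.4, 71.7 and 32.5 CPM and 13.3, 75.3 and 50.3 CPM. Dact1, an intracellular modulator of Wnt signalling, stood at 416, 458 and 131 CPM, against 132, 99.3 and 34.4 CPM and 130, 126 and 58.7 CPM. Both were higher in the members than in either type in all 3 libraries.

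Sema3d, Cgnl1 and Klf5 had UMIs in both groups of members. Sema3d, a secreted guidance factor, stood at 224, 1047 and 105 CPM in members without perineurial markers and at 502, 884 and 188 CPM in those with them. The Pi16-type had 215, 182 and 36.4 CPM and the Cxcl14-type 39.2, 77.3 and 13.4 CPM, so in PLV 1 the first group was level with the Pi16-type. Cgnl1, a junction-associated protein, stood at 128, 196 and 99.6 CPM and at 432, 177 and 516 CPM, against 104, 43.9 and 16.8 CPM in the Pi16-type and 74.8, 44.1 and 13.4 CPM in the Cxcl14-type. Klf5, a zinc-finger transcription factor, stood at 96.1, 1308 and 144 CPM and at 1401, 972 and 704 CPM, against 38.5, 56.5 and 8.39 CPM and 64.1, 105 and 30.6 CPM. The first of these Klf5 values is 3 UMIs in 2 of 9 barcodes. Fxyd6, Ephb2, Trib2, Omd, Dock9, Phlda3, Serpinb6c and Foxd2os were also among the 20, and of these Phlda3 had 1 UMI in all 12 PLV members without perineurial markers against 226 in the mixed library.

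The mixed library held the most members free of perineurial markers, 126 with 974304 UMIs in their sum. It is 1 pool of 2 mice, so this depth does not show how far its profile repeats. Against Pi16-type and Cxcl14-type fibroblasts of the same library at once, 90 of 4984 genes (1.81%) were at least 2-fold higher and 55 of 2144 (2.57%) at least 2-fold lower. Against each type alone 250 (5.02%) and 232 (4.65%) were higher. Cd200, a membrane glycoprotein that restrains myeloid cells, led them at 295 CPM against 33.6 and 11.5 CPM. Acsbg1, an acyl-CoA synthetase, had 95.5 against 2.80 and 5.73 CPM. Gfra2, the receptor subunit for neurturin, had 94.4 against 2.80 and 11.5 CPM. All 3 were low in both other types. Matn2, a matrilin of filamentous matrix, had 179 CPM against 0 UMIs in the Pi16-type and 32.5 CPM in the Cxcl14-type. Cdh11, the cadherin of mesenchymal cells, had 221 against 30.8 and 34.4 CPM. Fmo2, a flavin monooxygenase, had 1082 against 238 and 260 CPM, and Kitl, the ligand of the Kit receptor, 515 against 86.7 and 118 CPM. Srgn, Adcy7, Ctla2a, Pf4, Egflam, Bace2, Cgnl1, Phlda3, Fxyd6, Ltbp4, Ccn2 and Col4a3 were also among the 20 highest.

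Most of these genes pointed the same way in PLV 1, where the members without perineurial markers were 9 barcodes. Of the 19 genes at least 4-fold above both types in the mixed library, 16 were higher in the members than in the Pi16-type there, and 14 than in the Cxcl14-type. Over all genes compared, 46.5% and 47.3% were higher. In PLV 2, with 3 member barcodes, 9 of the 18 with a UMI were higher in each comparison, against 40.7% and 41.6% of all genes. Kitl stood at 769 and 2682 CPM in the members of the PLV libraries, against 588 and 546 CPM in the Cxcl14-type and 148 and 176 CPM in the Pi16-type. Fmo2 stood at 640 and 720 CPM, against 249 and 408 CPM and 46.2 and 132 CPM. Both genes were therefore higher in the members of all 3 libraries, Kitl by little over the Cxcl14-type in PLV 1. Cd200 had 5 UMIs (160 CPM) in PLV 1 and none in PLV 2.

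Among the 10 genes lowest in the members of the mixed library, C3, the central complement component, stood at 28.7 CPM against 833 CPM in the Pi16-type and 1219 CPM in the Cxcl14-type. In the PLV libraries it was at 1473 and 785 CPM in the members, against 3009 and 3645 CPM and 3359 and 5286 CPM. It was lower in the members of all 3 libraries. Gpx3, a secreted glutathione peroxidase, stood at 18.5 CPM against 406 and 711 CPM, and in PLV 1 at 352 against 844 and 691 CPM. Il1r2, the decoy receptor for interleukin 1, had 5.13 against 165 and 134 CPM, and Ace, the angiotensin-converting enzyme, 36.9 against 294 and 325 CPM. Postn, a matricellular protein, had 32.8 against 447 and 212 CPM, and no UMI in the members of the PLV libraries without perineurial markers, where the Pi16-type had 3703 and 1713 CPM. Efemp1, Myoc, Plac8, Lrrn4cl and Tnmd complete the 10 lowest.

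**Figure D4:**
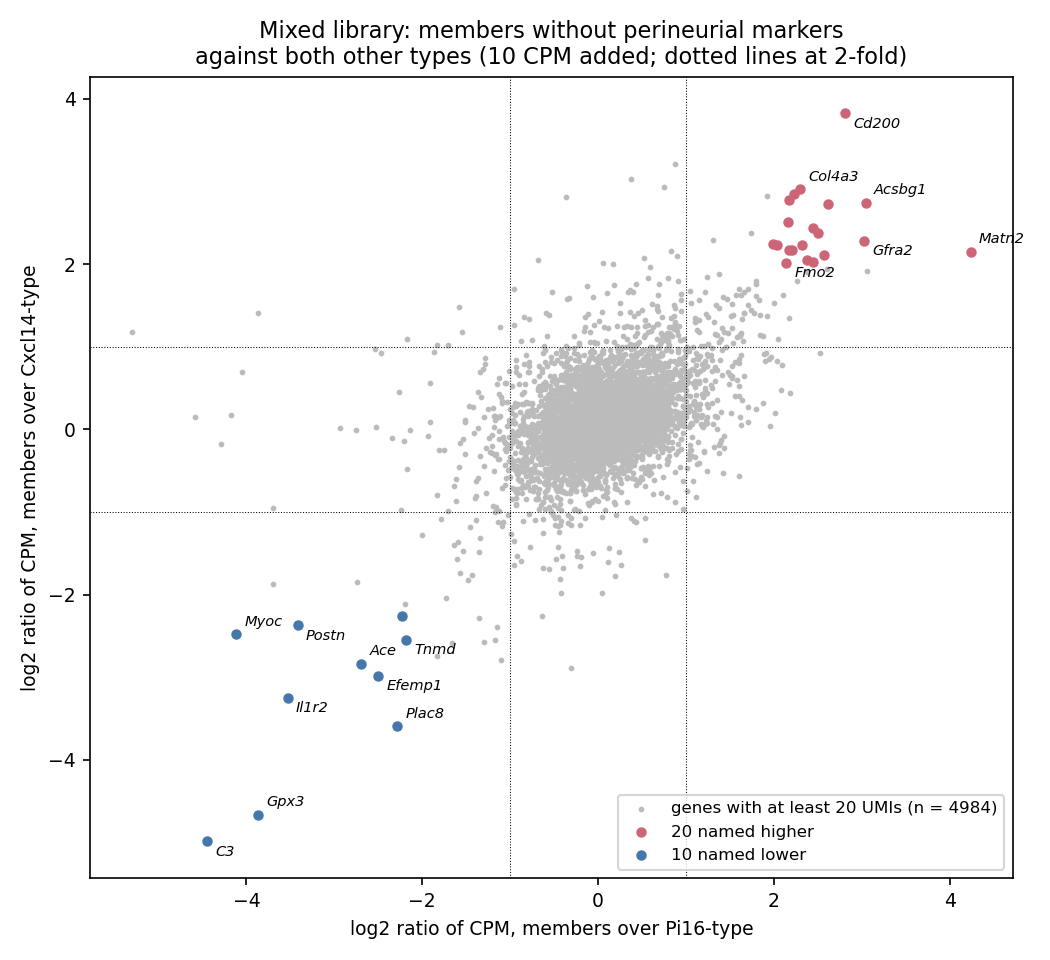
Log2 ratio of CPM in the mixed library (10 CPM added), members without perineurial markers over Pi16-type (horizontal) and over Cxcl14-type fibroblasts (vertical), one point per gene, dotted lines at 2-fold. The 20 highest genes sit at the upper right, led by Cd200, and the 10 named lower genes at the lower left, led by C3 and Gpx3.

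By function, the counts in the mixed library against both types were small, beside 1.81% of all genes higher and 2.57% lower. The median of the mean log2 ratio over all 4984 genes was 0.10. Elastic fibre and microfibril genes had 3 of 17 tested higher (Ltbp4, Fbln5 and Mfap4) and 2 of 14 lower (Efemp1 and Ltbp1), with a median of 0.15. Ltbp4, which binds latent TGF-beta and helps lay down elastic fibres, stood at 878 against 168 and 180 CPM, and Fbln5, an elastin-binding fibulin, at 155 against 33.6 and 53.5 CPM. In the PLV libraries Ltbp4 was higher too, at 2210 and 1439 CPM against 495 and 596 CPM in the Pi16-type and 1229 and 1087 CPM in the Cxcl14-type. Fbln5 was not, at 160 and 131 CPM against 141 and 169 CPM and 175 and 188 CPM. Matricellular genes had 3 of 10 higher (Smoc2, Ccn2 and Ccn4) and 3 of 9 lower (Postn, Ccn5 and Fn1), with a median of 0.21. Ccn2, a matricellular protein induced by tension and TGF-beta, stood at 120 against 11.2 and 9.55 CPM, and Ccn5 at 12.3 against 123 and 87.9 CPM. Fn1, fibronectin, stood at 531 against 2151 and 1301 CPM, and in the PLV libraries at 544 and 392 CPM against 9083 and 4811 CPM and 1931 and 756 CPM, lower in all 3. Members of 1 list thus lay on both sides.

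Signalling lists gave mostly single genes, again beside 1.81% and 2.57% of all genes. Of the Wnt list, Dkk3 was higher (1 of 5) and Sfrp2, a secreted Wnt modulator, lower (1 of 3; 181 against 515 and 424 CPM). Of the BMP and TGF-beta list none of 16 was higher and 3 of 10 were lower. These were Id2, a target of BMP signals, at 103 against 277 and 269 CPM, Fst, which binds activins, at 40.03 against 168 and 325 CPM, and Tgfb2, a TGF-beta ligand, at 16.4 against 78.3 and 101 CPM. Of complement, 0 of 8 were higher and 2 of 9 lower, C3 and C4b, the latter a component of the classical pathway at 17.5 against 89.5 and 606 CPM. Bgn, a small proteoglycan, was the only 1 of 10 in its list that was higher, at 2688 against 750 and 902 CPM, and it was higher in the PLV libraries as well, at 2178 and 1570 CPM against 409 and 533 CPM and 933 and 806 CPM. Of the IGF list Igfbp4, an IGF-binding protein, was the only 1 of 7 higher, at 1069 against 344 and 481 CPM. No fibrillar collagen outside the rule (0 of 4) and no tetraspanin besides Tspan11 (0 of 10) was higher against both types. Of 19 patterning factors tested, Twist2 was higher, and of 12 Twist1 and Ebf1 were lower.

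Markers of other cell types were summed in the members without perineurial markers. The 6 muscle markers summed to 64.05, 0 and 38.0 CPM and the 6 blood endothelial markers to 96.1, 0 and 50.3 CPM, with 5, 6 and 3 of the endothelial markers at 0. The endothelial sum was 169, 37.6 and 14.0 CPM in the Pi16-type and 92.6, 5.52 and 5.73 CPM in the Cxcl14-type, so in the mixed library the members (interval 37.2 to 66.5 CPM) lay above both (4.54 to 32.6 and 1.18 to 16.7 CPM). The part of endothelial RNA in the profile of that library was not tested. Cdh5, an endothelial cadherin, had 22 UMIs in the mixed library, and it counted among its 90 higher genes. The 6 endoneurial fibroblast markers summed to 352, 458 and 61.6 CPM, against 289, 270 and 89.5 CPM in the Pi16-type and 199, 166 and 107 CPM in the Cxcl14-type. The 10 fat precursor markers, genes of fibroblast-like cells that can form fat, summed to 5284, 4383 and 3193 CPM in the members, 1459, 1267 and 1572 CPM in the Pi16-type and 4210, 3785 and 3176 CPM in the Cxcl14-type. Of these F3, the tissue factor that starts clotting, stood at 1345, 1439 and 393 CPM in the members, 112, 270 and 95.1 CPM in the Pi16-type and 335, 568 and 214 CPM in the Cxcl14-type. Lpl, lipoprotein lipase, stood at 1089, 392 and 241 CPM, against 769, 470 and 610 CPM and 1304, 1385 and 1488 CPM. In the mixed library 1 of 8 of these markers was at least 2-fold above both types (Fmo2) and 1 of 6 below both (Lpl). Pparg, the nuclear receptor of fat cell formation, had no UMI in the members, and 2, 3 and 1 of the 10 were at 0 there. The part of fat precursors in the levels above was not tested. Pi16-type fibroblasts themselves held 1796, 7634 and 10356 CPM of muscle markers, and Cxcl14-type 178, 22.1 and 28.6 CPM. Part of the muscle RNA thus sat in the Pi16-type of every library, and its part in the differences from that type was not tested.

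The kind of library was not part of the rule. Within members the difference between kinds was tested with edgeR's quasi-likelihood test on UMIs summed per library. The rule let a member carry more genes of the Pi16 and Cxcl14 sets the more of its own 4 genes it had. Members with all 4 were 1 of 18, 1 of 5 and 67 of 127. Members with at least 1 gene of the other sets were 11, 2 and 120. Genes that go with those sets are thus not wholly free of the rule here or in the interaction below. That part was not tested. Of 3119 genes, 265 (8.5%) passed an adjusted p of 0.05, 160 higher and 105 lower in the mixed library. They include 5 genes that the rule used (Col1a1, Col1a2, Serpinf1, Pcolce2 and Pi16), which count as no result, and 260 others, 155 higher and 105 lower. The lone mixed sum is assumed to vary like the PLV sums, and DESeq2 called 35. Outside the rule, the smallest adjusted p among the increases were those of Sparc and Col3a1. Sparc, a collagen-binding glycoprotein, had 1660, 714 and 35758 CPM and its log2 fold change was 5.50 (SE 0.58, adjusted p = 9.96e-18 in edgeR). Col3a1, a fibrillar collagen, had 1942, 1767 and 20445 CPM (log2 4.11, SE 0.54, edgeR adjusted p = 3.6e-11). Other fibroblasts had 2611, 1696 and 15926 CPM of Sparc and 6697, 3802 and 13379 CPM of Col3a1, so these genes were higher in the mixed library outside the members too. The difference of the increases did not pass the threshold for Sparc (edgeR adjusted p = 0.318) or Col3a1 (0.300).

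The list counts in this test, with the rule's genes left out, are read beside 8.5% of all 3119 genes called with every member, and 4.28% of 724 without those with perineurial markers. At that second share a list of a few genes would often hold no call. Fibrillar collagens had 3 of 4 higher (Col3a1, Col5a1 and Col5a2) and 0 lower, with a median log2 difference of 2.96. Without the perineurial-marker members 0 of 4 passed, with a median of 1.76. Other collagens had 5 of 6 higher (Col6a1, Col6a2, Col6a3, Col14a1 and Col16a1) with a median of 2.41, and 0 of 4 without those members, with a median of 1.14. The median over all 3119 genes was -0.12. Of the type IV collagens Col4a2 passed (log2 2.13, edgeR adjusted p = 0.0253), and without those members it did not (log2 1.46, edgeR adjusted p = 0.192). Of these collagens DESeq2 on all members called Col3a1, Col5a1 and Col14a1, and not Col4a2, Col5a2, Col6a1, Col6a2, Col6a3 or Col16a1.

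The perineurial list had 5 of 6 lower in the mixed library (Slc2a1, Itgb4, Cldn1, Lypd2 and Casq2), which restates that 11 of its 12 carriers were PLV barcodes. The same barcodes held the PLV UMIs of other lists. Of the integrin subunits 4 of 7 fell (Itga1, Itga6, Itga7 and Itgb4), and Itga6, Itga7 and Itgb4 had 0 UMIs in the other PLV members. Of the patterning factors 5 of 16 fell (Sox9, Foxc1, Foxd1, Ebf2 and Nr2f2), and Sox9, Foxc1 and Foxd1 had 1 UMI each in the other PLV members. Without the perineurial-marker members 2 integrins and 6 patterning factors could still be tested and 0 passed, beside 4.28% of all genes. Itga1 then had a log2 difference of -2.79 (SE 5.93) against -3.42 with every member, and Nr2f2 -0.62 (SE 0.75) against -2.26. DESeq2 on all members called Itga6 and Itgb4, and none of the 5 patterning factors named. Of the immediate early and heat shock genes 4 of 16 rose (Jun, Jund, Hspa1a and Hspa1b), and 0 of 13 passed without the perineurial-marker members. The log2 difference then went from 2.11 to 0.38 for Jun and from 1.63 to 0.98 for Jund. That of Hspa1b went from 5.02 to 9.81 (SE 3.59), with no UMI left in the PLV members, so it is no bound. Hspa1a was not tested there, although all its UMIs (2, 0 and 262) were in members without perineurial markers. DESeq2 on all members called none of these 4. Hspa1a, a heat shock chaperone, had 17.1, 0 and 263 CPM in all members and 122, 148 and 832 CPM in the other fibroblasts. Hspa1a and Hspa1b are near-identical, so the split of reads between them is uncertain. Smoc2 showed almost no difference (log2 0.01, SE 0.60). With this SE, which is approximate, a 2-fold difference in either direction is not excluded.

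Without the members that carried perineurial markers the count was 31 of 724 genes (4.28%), 25 higher and 6 lower in the mixed library, of which 27 were among the 265, and DESeq2 called 5. Of the 31, Inmt is a gene of the rule and counts as no result. Sparc still rose (3010, 720 and 36421 CPM, log2 4.66, SE 1.25, edgeR adjusted p = 0.011). Col3a1 had 6373, 2224 and 20885 CPM and missed the threshold (log2 2.68, SE 0.97, edgeR adjusted p = 0.0886). Ftl1, the ferritin light chain, rose by 2.50 and Ubb, a ubiquitin precursor, by 2.35 in log2. Ferritin genes have near-identical copies in the genome, so the count of Ftl1 is uncertain. Igfbp7, an IGF-binding protein, rose by 2.10 in log2. Other fibroblasts had 1267, 2051 and 4841 CPM of Igfbp7, 744, 843 and 2344 CPM of Ubb and 836, 931 and 1129 CPM of Ftl1. These genes were thus higher in the mixed library outside the members too, Ftl1 by less.

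The 5 lower genes outside the rule were Xist, C3, Sgk1, Igfbp3 and Myoc. Myoc, a secreted olfactomedin-domain protein, had 21, 0 and 2 UMIs, so its call (edgeR adjusted p = 0.0498) rests on PLV 1 alone. C3 had 1473, 785 and 28.7 CPM and a log2 fold change of -4.89 (SE 0.81, adjusted p = 1.1e-06 in edgeR). Igfbp3, an IGF-binding protein, had 737, 196 and 17.4 CPM (log2 -4.39, edgeR adjusted p = 0.0184). In both the PLV libraries were high and the mixed library low. Other fibroblasts had 2187, 2522 and 357 CPM of C3 and 306, 664 and 47.8 CPM of Igfbp3, lower in the mixed library as well. Xist, the RNA that silences one X chromosome, had 50 and 13 UMIs (1601 and 850 CPM) against 0. From the pooled PLV value of 1354 CPM it was at least 439.9-fold lower when the mixed library is set at 3 UMIs. The limit from PLV 2 alone would be smaller.

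**Figure D5:**
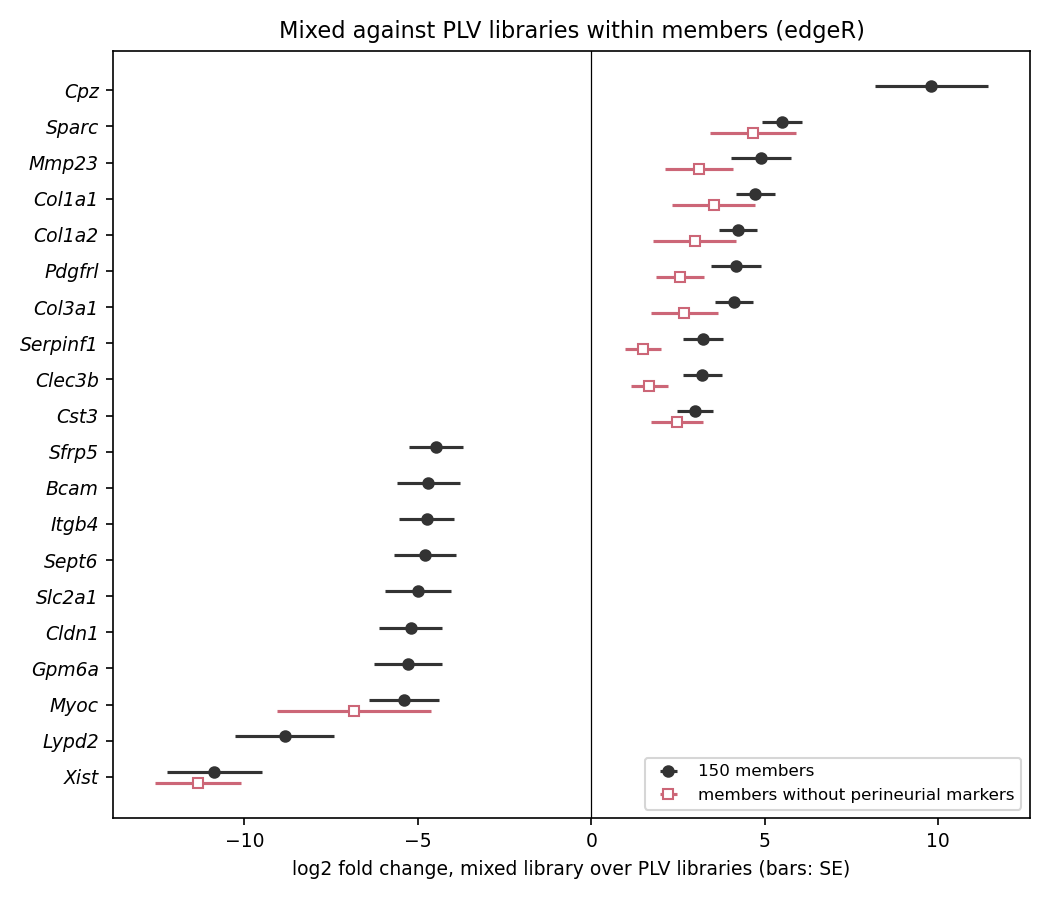
Log2 fold change of the mixed library over the PLV libraries (horizontal axis, edgeR, bars are an approximate SE) for the 20 genes named in the test within members. Points are for all 150 members (filled) and for the 138 without perineurial markers (open, where tested). Matrix genes are positive in both, and genes such as Itgb4, Cldn1 and Sfrp5 have no open point because the 138 hold too few UMIs of them. Col1a1, Col1a2 and Serpinf1 are genes of the rule and are shown as a description. Fitted values of Cpz, Lypd2 and Xist, which have no UMI in one kind of library, are not bounds.

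Whether the kinds of library differed otherwise in members than in other fibroblasts was tested by an interaction term with the library as a block. Of 10350 genes 24 (0.232%) passed, 9 higher and 15 lower, and the median over all 10350 was 0.34. Pi16, a gene of the rule, is one of the 9 and counts as no result. Fndc1, a fibronectin-domain protein, had 8.56, 37.6 and 190 CPM in the members and 711, 404 and 153 CPM in the other fibroblasts (log2 6.20, SE 1.25, edgeR adjusted p = 0.00365). Col14a1, a fibril-associated collagen, had 34.2, 37.6 and 456 CPM against 478, 158 and 148 CPM (5.54, SE 1.14, 0.00365). In the members of PLV 1 and PLV 2 Fndc1 had 1 and 1 UMIs and Col14a1 4 and 1, so these fitted sizes rest on few UMIs. Dpep1 passed too (4.09, SE 1.00, 0.0318). Other fibroblasts were not the same mixture in each library: 230 of 506, 23 of 118 and 43 of 389 were Pi16-type, and 378, 82 and 158 had fewer than 2 muscle markers. Among those with fewer than 2, Dpep1 stood at 497, 469 and 469 CPM and Col14a1 at 687, 275 and 379 CPM. The part of this make-up in the differences was not tested beyond the count without muscle-marker barcodes below. Sbspon, a somatomedin-domain protein, passed with the opposite sign, with 231, 150 and 6.03 CPM in the members against 24.9, 27.9 and 97.2 CPM (-6.39, SE 1.06, edgeR adjusted p = 1.51e-05). With the perineurial-marker members and the muscle-marker fibroblasts left out, edgeR called 0 of 9259 genes (0.0%; 172 had an unadjusted p under 0.05). Fndc1 then had a log2 difference of 4.80 (SE 1.15, edgeR adjusted p = 0.255), while that of Col14a1 was 3.23 and that of Dpep1 1.96 (SE 0.87, edgeR adjusted p = 1). DESeq2, on all members, called 1.

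The tdTomato reporter had a UMI in 4 of 18, 1 of 5 and 32 of 127 members (22.2%, 20.0% and 25.2%). Other fibroblasts had 12.5%, 18.6% and 37.5%, and blood endothelial barcodes 21.0%, 37.8% and 47.7%. At 1500 UMIs a cell the members had 11.1%, 0% and 5.79%, and blood endothelial barcodes 5.78%, 6.20% and 16.4%, so by this measure the members of the mixed library lay below its endothelial barcodes. The part of free RNA in these shares was not tested, and the value of PLV 2 is 1 UMI in 1 barcode. The difference between kinds of library was not shown to differ from that of other fibroblasts (log2 -0.59, SE 1.15, edgeR adjusted p = 1). In CPM the members had 34.2, 37.6 and 46.2, from 4, 1 and 46 UMIs. Wt1 itself had no UMI in any fibroblast.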

How the data were processed

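The authors' deposited values were raw UMI counts per gene and barcode. Cell Ranger 6.1.2 (PLV) and 4 (mixed) made them, per the file headers, and the submitters' processing notes name GRCm38. The deposited PLV matrices held 2649 and 730 barcodes and the mixed one 896360. Kept were 1919, 519 and 997 with at least 500 UMIs and 300 genes, at most 15% mitochondrial and 20% haemoglobin UMIs (9611078, 3466668 and 7814616 UMIs). Scrublet, run in scanpy 1.11.5, marked 14 doublets, which were left in. The sums of UMIs over each class in each library were compared by edgeR 4.0.16 in R 4.3.3 (TMM factors, filterByExpr, calls at a Benjamini-Hochberg adjusted p under 0.05), and DESeq2 1.42.0 was an alternative. The quasi-likelihood test gives no SE. Each SE printed with edgeR values is the size of the log2 fold change over the square root of the F statistic, an approximation. The labels say no more of how the PLV pools relate, so p-values measure the spread between these libraries.

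Named were the rule's genes and markers, the 20 highest and 10 lowest genes by the smallest log2 ratio over the libraries (10 CPM added, at least 20 UMIs), up to 10 genes a direction by adjusted p in each fit, called list genes, tdTomato and sex-limited genes. Naming by the mixed library alone, and the 2 groups of members, were added after the data were seen. Older symbols were matched through RefSeq synonyms, and Ccl19, Ccl21a and Dpep2, each on more than 1 row, were left out. Some named genes are not reported here. The members and lists were chosen with earlier results of these data known. In simulated data the test within members recovered 24.4% of planted 4-fold changes (2470 genes tested) and 75.3% of 8-fold ones (2442 genes, 0.529% false calls), and without perineurial-marker members 87.3% of 8-fold ones (483 genes, 0.943% false calls). The interaction recovered 0.529% of 4-fold (9677 genes) and 1.51% of 8-fold changes (9673 genes), and of the latter 35.5% where the changed genes had at least 1000 UMIs (9849 genes).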

Additional observations from a re-analysis of the deposited data

Results flagged for a closer look

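For 18 named genes the difference between the mixed library and the PLV libraries was unlike in members and in other fibroblasts by the interaction term (edgeR adjusted p under 0.05). The fitted log2 differences, members minus other fibroblasts, were positive for Fndc1 (6.20), Thy1 (5.77), Mbp (5.60), Col14a1 (5.54), Daglb (5.52), Gxylt2 (4.71), Dpep1 (4.09) and Fbln2 (3.85). They were negative for Itga7 (-9.97), Rasd1 (-6.75), Sbspon (-6.39), Nav2 (-5.68), Bcam (-4.78), Epas1 (-4.70), Thbs1 (-4.34), Rasgrp2 (-4.31), Casq2 (-4.24) and Cldn22 (-3.89). Itga7 had no UMI in members of the mixed library, so its fitted value is no bound. Fndc1 and Daglb had 1 and 1 UMIs in the members of PLV 1 and PLV 2. Thy1 had 1 and 0 there, and Mbp 2 and 0, so their fitted sizes rest on few UMIs. Many of the genes of negative sign were counted almost wholly in members with perineurial markers: Sbspon, Itga7 and Casq2 had no UMI in the other 138 members. With those members and the muscle-marker fibroblasts left out, none of the genes still tested passed, and Itga7, Casq2 and Nav2 could not be tested. The positive differences were then 5.24 for Daglb, 4.80 for Fndc1, 4.01 for Thy1, 3.96 for Mbp, 3.23 for Col14a1, 2.33 for Gxylt2, 1.96 for Dpep1 and 1.86 for Fbln2, all smaller than before.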

How the results depend on the processing

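The mixed library kept the highest share of members in each setting tried. With at least 3 of the 4 genes required, 1.15% of the fibroblasts of PLV replicate 1 were members, and without perineurial-marker barcodes 1.72%. At 1500 UMIs a cell the mixed library had 18.1%. Against other fibroblasts, 1 added CPM gave 101 genes higher and 951 lower. The Pi16-type alone gave 183 lower, and the Cxcl14-type alone 93 and 93. Muscle-marker barcodes left out gave 97 lower, and perineurial-marker members left out as well 32 and 75. Leaving out 1 library gave 93 to 143 higher and 386 to 944 lower: 113 and 536 without PLV replicate 1, 93 and 386 without replicate 2, and 143 and 944 without the mixed library, since fewer libraries must pass. Without both kinds of barcode the median log2 difference changed sign for Sfrp5 (-1.68), Itgb4 (-1.35), Ntng1 (-1.22), Wnt6 (-0.68), Phlda3 (-0.39), Acta2 (0.83) and Synpo2 (0.042), and for Acta2 (0.31) with muscle-marker barcodes alone left out. Itgb4 and Acta2 are among the markers by which those barcodes were left out, so their changes of sign follow from the filter. Of 30 genes named there, no other changed sign in any setting.

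Within members the 265 calls became 6 with at least 3 of the 4 genes (1144 genes tested), 117 with no filter on low counts, 35 with DESeq2, and 31 (5 with DESeq2) without perineurial-marker members. For the difference between members and other fibroblasts the 24 calls became 0 with at least 3 of the 4 genes (184 at an unadjusted p under 0.05), 1 with DESeq2, 2 without muscle-marker barcodes and 0 without either kind. Beyond the smaller numbers of genes and cells, the cause was not tested. The 20 genes named within members kept their direction in all settings that tested them, but many did not keep the threshold. With at least 3 of the 4 genes more of them lost it than kept it. Some lost it without perineurial-marker members, and with DESeq2 there more lost it than kept it. tdTomato after thinning was found in 0% of the members of PLV replicate 2 and 5.79% of those of the mixed library.

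No paired analysis was possible because the mixed group has 1 library, so the groups share a single replicate number. The PLV values rest on 18 and 5 barcodes, and the lone mixed library gives no spread of its own.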
